A study of Mus musculus with 36 samples.

Results

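The genes described here are 10 members of the machinery by which the liver packs lipid into lipoprotein particles: the apolipoprotein genes Apoa1, Apoa2, Apoa4, Apoa5, Apob, Apoc1, Apoc3, Apoe and Apom, and Mttp, the gene of the microsomal triglyceride transfer protein. They were taken by name from the 136300 gene identifiers of the liver table, and all 10 were among the 23875 genes with enough counts to be tested. Polyadenylated RNA was sequenced from livers of 4-week-old male mice in 4 groups of 3 libraries, which differed in feeding and in Vps15. The wild type groups were labelled WT, and the knockout groups, named Vps15LKO here as in the labels, were labelled Ttr CRE+, Vps15f/f, a floxed Vps15 allele with a Cre recombinase driven by the transthyretin promoter, which is active in hepatocytes. Within each genotype, mice were either fed at will or fasted for 24 h, and both were killed at zeitgeber time 14 h, early in the dark phase. The labels give the cell type as hepatocyte, but the RNA came from whole frozen, powdered liver, so it holds the RNA of every liver cell type. The labels do not say that each library was a separate mouse, and p-values measure only the spread between these libraries. Libraries are called a, b and c within each group.

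Very low density lipoprotein (VLDL) forms in the endoplasmic reticulum of hepatocytes, where the transfer protein loads triglyceride onto apolipoprotein B while that protein is still being made. Smaller apolipoproteins then join the particle or the high density lipoprotein (HDL) and decide how fast its lipid is used and which receptor removes it. In fasting, the liver takes up fatty acids from fat tissue and sends part of them out again as VLDL triglyceride. VPS15, which the gene Pik3r4 encodes, is the regulatory subunit of the class III phosphoinositide 3-kinase, an enzyme needed for autophagy and endosome traffic.

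In wild type liver, fasting raised 6 of the 10 genes, led by Apoa4, Apoa5 and Apoa1, and lowered none, where 12.4% of all tested genes were called higher and 14% lower. In Vps15LKO liver, 8 of the 10 were already lower than in wild type when the mice were fed, and 9 when they were fasted, beside 23.0% and 28.1% of all tested genes called lower. Of 20 hepatocyte markers, 19 were lower in fed and 18 in fasted Vps15LKO liver. Among the 10 genes Apoa4 stood apart: it was 8.67-fold higher in fed Vps15LKO than in fed wild type liver. For some of the 8 the direction depended on the scale. Per 100 counts of Alb, the albumin gene, Apoa5, Apob, Apoe and Mttp were higher in fed Vps15LKO than in fed wild type liver. Fasting changed none of the 10 past the threshold in Vps15LKO liver. There 0.792% of the tested genes were called higher and 0.599% lower, a total of 332 genes. This total was unstable: it ran from 4 to 1558 genes with other methods or with 1 library left out. For Apoa1, Apoa4 and Apoa5 the fasting response itself differed between the genotypes. All levels below are counts per 1000000 counts of the library, scaled by TMM factors (CPM), all fold changes are on the log2 scale with their standard errors, and a gene was called at an adjusted p under 0.05 in edgeR's quasi-likelihood test, with Benjamini-Hochberg adjustment over the 23875 genes.

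Libraries held 9110836 to 12870944 counts. The TMM scaling factors, which correct for a few genes taking much of a library, were 0.801 to 0.921 in wild type and 1.11 to 1.22 in Vps15LKO libraries, so the choice of scale bears on every comparison between genotypes. Mitochondrially encoded genes took 3.29 to 3.65% of the counts in wild type and 2.01 to 2.65% in Vps15LKO libraries. Pik3r4 was at 17.6 to 24.7 CPM in the 6 wild type libraries and at 18.2 to 25.3 CPM in the 6 Vps15LKO libraries, with a log2 change of 0.18 ± 0.14 in fed liver (adjusted p = 0.312, edgeR). Counts over the whole gene do not check a deletion of part of it, and the genotype rests on the labels. The 20 hepatocyte markers summed to 52421 to 56068 CPM in fed and 62872 to 64263 in fasted wild type, and 23790 to 27692 in fed and 23920 to 27049 in fasted Vps15LKO libraries. In whole tissue, fewer cells of a type and less RNA per cell cannot be told apart.

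Of the 10 genes, 4 lie side by side on chromosome 9 (GRCm38): Apoa1 (ENSMUSG00000032083, chr9:46228580-46230466, plus strand), Apoc3 (ENSMUSG00000032081, chr9:46232933-46235636, minus strand), Apoa4 (ENSMUSG00000032080, chr9:46240696-46243459, plus strand) and Apoa5 (ENSMUSG00000032079, chr9:46268633-46271919, plus strand), which together span 43.3 kb. On chromosome 7, Apoc1 (ENSMUSG00000040564, chr7:19689481-19692660) and Apoe (ENSMUSG00000002985, chr7:19696109-19699188) lie on the minus strand within 9.71 kb. The others stand alone: Apob (ENSMUSG00000020609, chr12:7977648-8016835, plus strand), Apoa2 (ENSMUSG00000005681, chr1:171225054-171226379, plus strand), Apom (ENSMUSG00000024391, chr17:35128997-35132050, minus strand) and Mttp (ENSMUSG00000028158, chr3:138089854-138144968, minus strand). All are annotated as protein coding. The library kit marks strand, but the strand setting of the counting was not given in the sources used here. Gm10680, antisense to Apoa4 over 632 exon bases, had 0 counts in all 12 libraries. Trmt10a, which shares 457 exon bases with Mttp on the other strand, had 28 to 78 counts per library. Gm43691, antisense to Mttp over 132 exon bases, had 0 or 1 count per library. Gm47528 and Gm47544, annotated antisense to Apoa4 and Apoa5, were not analysed here.

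The promoter-side sequences of the 3 genes whose fasting response differed between genotypes are shown because these genes lie in 1 cluster and did not move alike. They come from RefSeq on GRCm38.p6, in windows of 300 bases, and only the part before both the RefSeq and the GENCODE start is printed, 5′ to 3′ on the plus strand. Capitals mark matches to the motifs searched.
Apoa1, chr9:46228380-46228579: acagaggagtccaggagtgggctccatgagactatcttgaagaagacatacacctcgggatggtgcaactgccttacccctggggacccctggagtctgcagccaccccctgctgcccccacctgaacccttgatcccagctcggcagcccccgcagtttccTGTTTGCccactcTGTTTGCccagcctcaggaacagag
Apoa4, chr9:46240594-46240695: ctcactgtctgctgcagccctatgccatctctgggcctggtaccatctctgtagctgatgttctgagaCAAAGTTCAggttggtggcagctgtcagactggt
Apoa5, chr9:46268383-46268632: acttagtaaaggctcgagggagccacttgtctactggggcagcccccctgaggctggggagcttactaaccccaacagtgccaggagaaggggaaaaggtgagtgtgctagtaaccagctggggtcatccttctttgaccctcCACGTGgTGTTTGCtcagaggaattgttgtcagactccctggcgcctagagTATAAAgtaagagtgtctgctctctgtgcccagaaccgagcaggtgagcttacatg

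In the Apoa1 sequence the capitals are a pair of TGTTTGC, a forkhead-type motif, beginning 38 and 25 bases before the GENCODE start. The Apoa4 sequence holds CAAAGTTCA, an HNF4-type motif, 34 bases before the GENCODE start, which lies 148 bases upstream of the RefSeq start. The Apoa5 sequence holds the E-box CACGTG 107 bases before the start, TGTTTGC 100 bases before it and TATAAA 56 bases before it. No marked matches shared a base. Both strands were searched in the whole 300-base windows for TATAAA, held by 13.6% of the 32851 RefSeq windows, CAAAGTCCA (0.475%), CAAAGTTCA (0.39%), AGGTCA (16.3%), TGTTTAC (3.65%), TGTTTGC (5.07%), GTTAAT (7.1%), TTGCNNAA (10.8%), CACGTG (7.15%) and TGACG (20.8%). Of the 10 genes, 8 had a window, and Apoc1 and Apoc3 are named only. TGTTTGC was in 3 of the 8 windows (Apoa1, Apoa5 and Apob) and CAAAGTTCA in 1 (Apoa4). TATAAA was in 3 of the 8, TGACG in 2, and TGTTTAC, TTGCNNAA and CACGTG in 1 each. CAAAGTCCA, AGGTCA and GTTAAT were in 0. These matches are descriptions of letters, and no binding was measured.

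Apoa4, a lipid-binding apolipoprotein of liver and intestine that rides on HDL and on triglyceride-rich particles, had the widest range of the 10 genes. In fed wild type liver it was at 122, 166 and 203 CPM in libraries a, b and c, and in fasted wild type liver at 2963, 2050 and 1621 CPM. In fed Vps15LKO liver it was at 1406, 1010 and 1837 CPM, and in fasted Vps15LKO liver at 1978, 1868 and 1990 CPM. Every library of the other 3 groups lay above every fed wild type library, and the fed Vps15LKO libraries overlapped those of fasted wild type. Fasting raised Apoa4 by 3.76 ± 0.26 on the log2 scale in wild type (adjusted p = 2.91e-07, edgeR), which is 13.5-fold. The fed Vps15LKO level was above the fed wild type level by 3.12 ± 0.26 (adjusted p = 1.72e-07, edgeR). In Vps15LKO liver the fasting change was 0.46 ± 0.23 (adjusted p = 0.328, edgeR), and fasted Vps15LKO differed from fasted wild type by -0.18 ± 0.23 (adjusted p = 0.526, edgeR). The fasting change in Vps15LKO moved from 0.46 to 0.26 without fed Vps15LKO library b, and was called at 0.49 (adjusted p = 0.0126, edgeR) with no filter on low counts. The difference from fasted wild type turned to 0.11 without fasted wild type library a and to 0.33 when libraries were scaled by their sizes alone. The fasting response was smaller in Vps15LKO than in wild type by a log2 difference of -3.30 ± 0.34 (adjusted p = 3.3e-05, edgeR).

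Enterocytes, the absorbing cells of the intestine, also make Apoa4, Apoa1 and Apob. The 7 enterocyte markers summed to 17.2 to 23.6 CPM in fed and 80.4 to 120 in fasted wild type, and 15.9 to 25.1 in fed and 22.3 to 30.0 in fasted Vps15LKO libraries. Fabp2, a fatty acid binding protein, gave most of it, with 18.0 ± 3.03 CPM in fed and 99.9 ± 19.7 CPM in fasted wild type liver, and 13.9 ± 4.58 CPM in fed and 19.8 ± 3.43 CPM in fasted Vps15LKO liver (SD, n = 3). The brush border enzymes Sis, Alpi and Lct were at 0 in all 6 wild type libraries. In Vps15LKO libraries Sis was at 0, and Alpi reached a mean of 0.518 ± 0.339 CPM in fed and 2.42 ± 1.15 CPM in fasted liver (SD, n = 3). Of the 5 markers tested, wild type fasting raised Fabp2 by 2.47 ± 0.22 (adjusted p = 1.73e-06, edgeR) and lowered Vil1, a brush border protein, by a log2 change of -3.30 ± 0.99 from a mean of 0.522 CPM (adjusted p = 0.0229, edgeR). The call for Vil1 was lost without fed wild type library a or fasted wild type library a or c (adjusted p from 0.0763 to 0.107, edgeR). In Vps15LKO fasting 0 of the 5 were called, where 0.792% of all tested genes were called higher and 0.599% lower. In fed Vps15LKO liver 2 were higher than in wild type, Alpi and the mucin Muc13 (from 0.173 to 2.79 CPM in the means, adjusted p = 0.000207, edgeR). In fasted Vps15LKO liver Alpi, Muc13 (1.42 against 0.0418 CPM, adjusted p = 0.000771) and Vil1 (1.26 against 0.0418 CPM, adjusted p = 0.000265) were higher, and Fabp2 was lower by a log2 change of -2.33 ± 0.21 (adjusted p = 2.82e-07, edgeR). The part of such cells in the Apoa4 level was not tested.

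Apoa1, the main structural protein of HDL, doubled its level in wild type fasting and did not do so in Vps15LKO. It was at 2866, 2612 and 2114 CPM in fed and at 5067, 4910 and 4872 CPM in fasted wild type liver. In fed Vps15LKO liver it was at 2330, 2071 and 2123 CPM, and in fasted Vps15LKO liver at 2258, 2318 and 2596 CPM. The 3 fasted wild type libraries stood above all others, and the other 3 groups overlapped. Fasting raised Apoa1 by 0.97 ± 0.13 in wild type (adjusted p = 6.91e-05, edgeR), a 1.96-fold change. Fasted Vps15LKO was below fasted wild type by a log2 change of -1.05 ± 0.13 (adjusted p = 6.23e-06, edgeR), while in fed liver the difference was -0.22 ± 0.13 (adjusted p = 0.184, edgeR), and 0.15 with library sizes alone. The fasting response differed between genotypes by -0.83 ± 0.18 (adjusted p = 0.00813, edgeR).

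Apoa5, a low-abundance plasma protein that promotes the lipolysis of triglyceride-rich particles, rose with fasting in wild type as Apoa1 did. It was at 965, 810 and 877 CPM in fed and 2255, 1953 and 2048 CPM in fasted wild type liver. It was at 693, 587 and 756 CPM in fed and 598, 675 and 659 CPM in fasted Vps15LKO liver. No wild type library overlapped a Vps15LKO library, and the fed and fasted Vps15LKO libraries lay in 1 range. The wild type fasting change was 1.24 ± 0.13 (adjusted p = 5.97e-06, edgeR), or 2.36-fold. Vps15LKO was lower than wild type by a log2 change of -0.38 ± 0.13 in fed liver (adjusted p = 0.0211, edgeR) and of -1.70 ± 0.13 in fasted liver (adjusted p = 4.14e-08, edgeR). The fed difference lost its call without fed wild type library a, at -0.31 (adjusted p = 0.1, edgeR), without fed Vps15LKO library b, at -0.29 (adjusted p = 0.0863, edgeR), and with library sizes alone, at -0.01. The fasting response differed between genotypes by -1.31 ± 0.18 (adjusted p = 0.000292, edgeR).

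Apoc3, an inhibitor of lipoprotein lipase and of remnant uptake, lies between Apoa1 and Apoa4 on the opposite strand and followed neither. It was at 876, 836 and 972 CPM in fed and 1286, 1086 and 1085 CPM in fasted wild type liver, against 381, 404 and 382 CPM in fed and 433, 438 and 457 CPM in fasted Vps15LKO liver. The 2 genotypes were widely apart, and within each genotype fasted libraries lay above fed ones. Vps15LKO was lower by a log2 change of -1.20 ± 0.11 in fed (adjusted p = 6.34e-07, edgeR) and -1.38 ± 0.11 in fasted liver (adjusted p = 8.94e-08, edgeR). The wild type fasting change was 0.37 ± 0.11 (adjusted p = 0.0243, edgeR). It was not called with library sizes alone (0.18, adjusted p = 0.229, edgeR) or with no filter on low counts (0.27, adjusted p = 0.244, edgeR), nor without fed wild type library a or b or fasted wild type library a (adjusted p from 0.0823 to 0.12, edgeR). The Vps15LKO fasting change was 0.19 ± 0.11 (adjusted p = 0.402, edgeR).

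**Figure D1:**
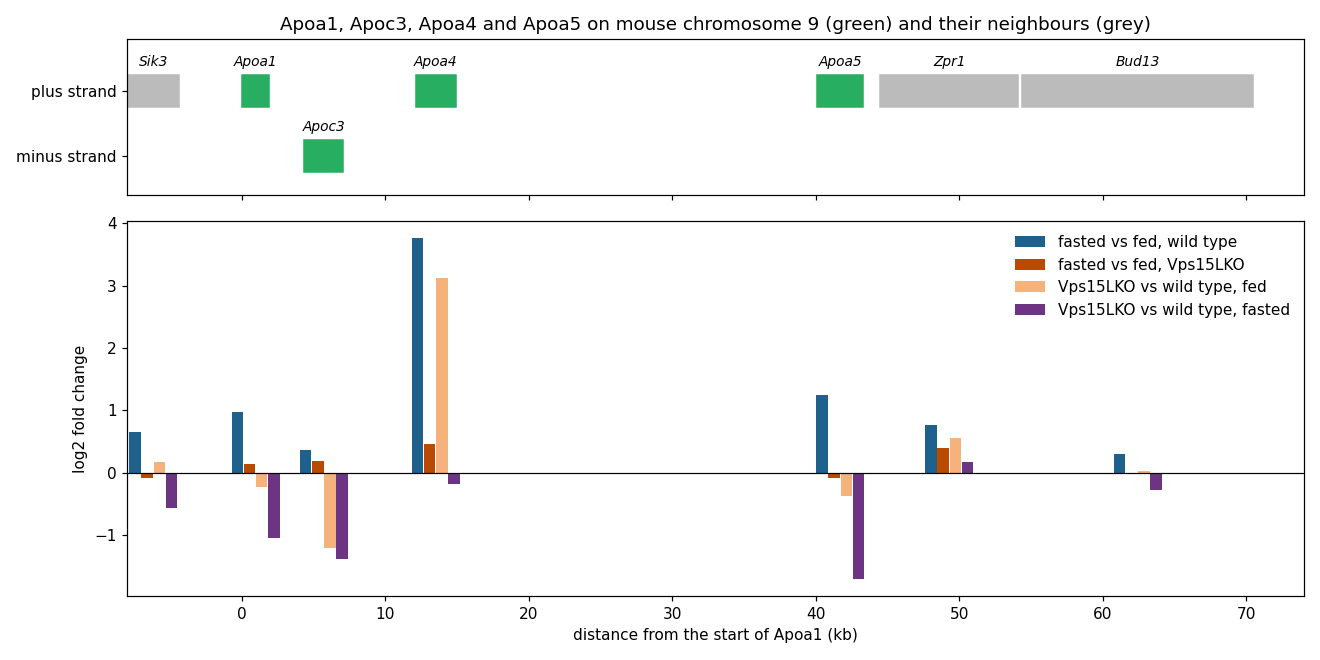
Map of the chromosome 9 cluster (top; horizontal axis, distance from the start of Apoa1 in kb; green, the 4 apolipoprotein genes; grey, neighbours, with Sik3 running past the left edge) and the log2 fold change of each gene in 4 comparisons (bottom; bars). Apoa4 has the tall bars for wild type fasting (3.76) and for fed Vps15LKO against wild type (3.12), while Apoc3 beside it is at -1.20 in the latter.

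Inside the 43.3 kb of the cluster, then, fed Vps15LKO liver had Apoa4 higher by 3.12, Apoa5 and Apoc3 lower by -0.38 and -1.20, and Apoa1 at -0.22 without a call. Of the genes flanking the cluster, Sik3, a salt-inducible kinase gene upstream of Apoa1, had the same calls as Apoa1 in all 5 comparisons. It changed by 0.66 in wild type fasting (adjusted p = 0.000642, edgeR) and by -0.08 in Vps15LKO (adjusted p = 0.784, edgeR), and the fasting response differed between genotypes by -0.74 (adjusted p = 0.00838, edgeR). Sik3 in Vps15LKO differed from wild type by 0.18 in fed (adjusted p = 0.226, edgeR) and by -0.56 in fasted liver (adjusted p = 0.000718, edgeR), the latter at -0.05 and not called with library sizes alone. Zpr1, downstream of Apoa5, changed by 0.77 in wild type fasting (adjusted p = 0.000272, edgeR) and was higher in fed Vps15LKO by 0.55 (adjusted p = 0.0016, edgeR). Bud13, the next gene, was called in none of the 5 comparisons (log2 changes from -0.30 to 0.30).

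Apob, the structural protein of VLDL of which each particle holds a single copy, was lower in Vps15LKO liver in both feeding states. Its levels were 3283, 3827 and 3177 CPM in fed and 3761, 4409 and 4164 CPM in fasted wild type liver. In Vps15LKO liver they were 2079, 1773 and 1777 CPM when fed and 1738, 1668 and 2057 CPM when fasted. All 6 Vps15LKO libraries lay below all 6 wild type libraries, and within each genotype the fed and fasted libraries overlapped. The difference was a log2 change of -0.87 ± 0.13 in fed (adjusted p = 7.18e-05, edgeR) and -1.18 ± 0.13 in fasted liver (adjusted p = 2.43e-06, edgeR). Fasting changed Apob by 0.26 ± 0.13 in wild type (adjusted p = 0.161, edgeR) and by -0.04 ± 0.13 in Vps15LKO (adjusted p = 0.903, edgeR), neither of which was called.

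Mttp, whose protein is required for the lipidation of apolipoprotein B, had fasting changes of like size in the genotypes. It was at 344, 385 and 348 CPM in fed and 481, 510 and 467 CPM in fasted wild type liver. It was at 234, 245 and 238 CPM in fed and 296, 300 and 383 CPM in fasted Vps15LKO liver. Fed and fasted libraries did not overlap in either genotype. The fasting change was 0.44 ± 0.12 in wild type (adjusted p = 0.0121, edgeR) and 0.45 ± 0.12 in Vps15LKO (adjusted p = 0.0663, edgeR), with a difference between the 2 of 0.01 ± 0.16 (adjusted p = 0.978, edgeR). The wild type change was not called without fed wild type library a (0.40, adjusted p = 0.0535, edgeR), with library sizes alone (0.25, adjusted p = 0.0994, edgeR) or with no filter (0.34, adjusted p = 0.0897, edgeR). The Vps15LKO change was called with DESeq2 (0.45, adjusted p = 0.00559), with no filter (0.48, adjusted p = 0.0216, edgeR), with Ensembl genes only (0.47, adjusted p = 0.0329, edgeR) and without fasted Vps15LKO library b (0.51, adjusted p = 0.0374, edgeR). Vps15LKO was lower than wild type by a log2 change of -0.59 ± 0.12 in fed (adjusted p = 0.000758, edgeR) and -0.57 ± 0.12 in fasted liver (adjusted p = 0.000641, edgeR), and with library sizes alone by -0.21 and -0.07, neither of them called.

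Apoa2, an HDL protein beside Apoa1, fell in Vps15LKO liver in both feeding states. It was at 1682, 1522 and 1532 CPM in fed and 2230, 1965 and 2030 CPM in fasted wild type liver, against 610, 664 and 538 CPM in fed and 591, 736 and 701 CPM in fasted Vps15LKO liver. Every wild type library held more than double the level of any Vps15LKO library. The log2 change was -1.39 ± 0.13 in fed (adjusted p = 4.84e-07, edgeR) and -1.62 ± 0.13 in fasted liver (adjusted p = 5.99e-08, edgeR). The wild type fasting change of 0.39 ± 0.12 (adjusted p = 0.0288, edgeR) was not called with library sizes alone (0.21), with no filter (0.30) or without fed wild type library b or c or fasted wild type library a or c (adjusted p from 0.0541 to 0.104, edgeR). In Vps15LKO liver the fasting change was 0.16 ± 0.12 (adjusted p = 0.533, edgeR).

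Apoc1, a small exchangeable apolipoprotein that restrains lipolysis and particle uptake, was at 902, 786 and 811 CPM in fed and 1011, 937 and 894 CPM in fasted wild type liver. In Vps15LKO liver it was at 332, 327 and 333 CPM when fed and 321, 407 and 418 CPM when fasted. The genotypes were far apart, and fed and fasted libraries overlapped in each. Vps15LKO was lower by a log2 change of -1.33 ± 0.12 in fed (adjusted p = 5.01e-07, edgeR) and -1.31 ± 0.12 in fasted liver (adjusted p = 3.18e-07, edgeR). Fasting changed it by 0.18 ± 0.12 in wild type (adjusted p = 0.283, edgeR; -0.00 with library sizes alone) and by 0.21 ± 0.12 in Vps15LKO (adjusted p = 0.389, edgeR).

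Apoe, the ligand by which remnant particles bind the LDL receptor family, was the most counted of the 10 genes in every group. It was at 5550, 5367 and 5403 CPM in fed and 6532, 6522 and 6451 CPM in fasted wild type liver. It was at 3344, 2748 and 3121 CPM in fed and 3145, 3432 and 3341 CPM in fasted Vps15LKO liver. The fed and fasted wild type libraries were each tight and did not overlap, and all Vps15LKO libraries lay below them. The log2 change between genotypes was -0.82 ± 0.12 in fed (adjusted p = 3.28e-05, edgeR) and -0.98 ± 0.12 in fasted liver (adjusted p = 3.91e-06, edgeR). The wild type fasting change of 0.26 ± 0.12 was not called (adjusted p = 0.115, edgeR), but was with DESeq2 (0.25, adjusted p = 0.0252), with Ensembl genes only (0.29, adjusted p = 0.0363, edgeR) and with only the groups compared in the fit (0.25, adjusted p = 0.0433, edgeR). In Vps15LKO liver the fasting change was 0.11 ± 0.11 (adjusted p = 0.681, edgeR).

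Macrophages make Apoe too, and their markers moved the other way. The 16 macrophage and Kupffer cell markers summed to 1907 to 2440 CPM in fed and 634 to 882 in fasted wild type, and 3607 to 4331 in fed and 3166 to 3681 in fasted Vps15LKO libraries. All 16 were lower in fasted than in fed wild type liver, and 14 were higher in fed and 16 in fasted Vps15LKO than in wild type. Of all tested genes, 14% were lower in wild type fasting, and 23.4% in fed and 28.2% in fasted liver were higher in Vps15LKO. The median log2 change of the 16 between genotypes was 0.66 in fed and 1.73 in fasted liver. The most extreme was Gpnmb, a marker of lipid-laden macrophages, at 4.25 ± 2.02 CPM in fed wild type and 317 ± 134 CPM in fed Vps15LKO liver (SD, n = 3). Lyz2, by contrast, was at 180 ± 25.1 and 187 ± 12.8 CPM in these 2 groups. The part of these cells in the Apoe level was not tested.

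Apom, which carries sphingosine 1-phosphate on HDL, had no called change with fasting. It was at 193, 218 and 179 CPM in fed and 195, 206 and 184 CPM in fasted wild type liver, and at 102, 134 and 82 CPM in fed and 103, 104 and 109 CPM in fasted Vps15LKO liver. The fasting change was -0.01 ± 0.15 in wild type (adjusted p = 0.976, edgeR) and -0.00 ± 0.15 in Vps15LKO (adjusted p = 0.995, edgeR), with signs that turned between settings. Vps15LKO was lower by a log2 change of -0.89 ± 0.15 in fed (adjusted p = 0.000156, edgeR) and of -0.89 ± 0.15 in fasted liver (adjusted p = 0.000117, edgeR).

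**Figure D2:**
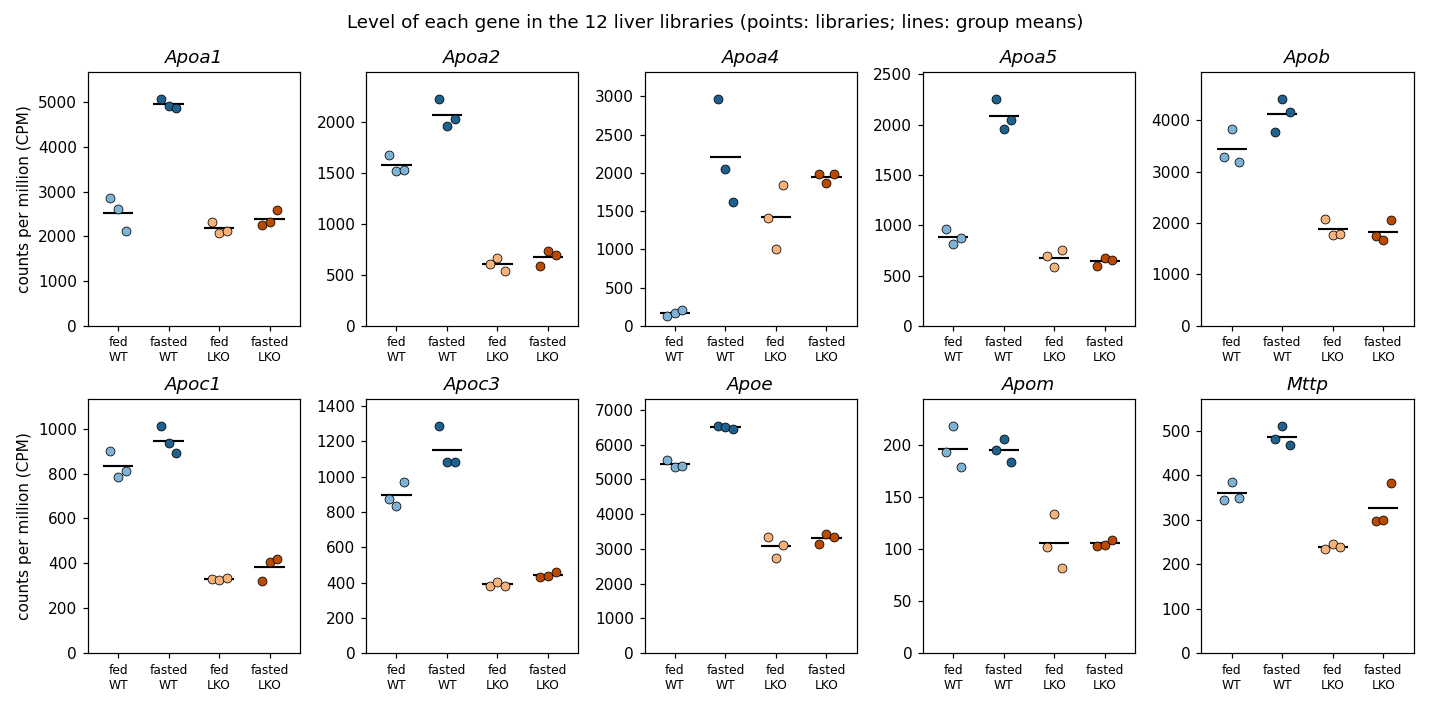
Level of each gene (vertical axis, CPM, from 0) in the 3 libraries of each group (points) with the group mean (line); LKO stands for Vps15LKO. Apoa4 is low only in the fed wild type libraries (122 to 203 CPM), Apoa1 and Apoa5 are high only in the fasted wild type libraries, and Apoa2, Apoc1 and Apoc3 split by genotype.

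Counted together, in wild type fasting 6 genes were called higher and 0 lower, with a median log2 change of 0.38 beside -0.01 for all tested genes. Of all tested genes, 12.4% were called higher and 14% lower in that comparison. With library sizes alone or with no filter on low counts, 3 were called (Apoa1, Apoa4 and Apoa5), and in the former scaling the median of all genes was itself at -0.19. Of all called genes, 47.0% were higher with TMM scaling, 25.5% with library sizes alone and 36.4% with no filter. In Vps15LKO fasting 0 of the 10 were called, with a median of 0.15 beside -0.02. There, 1 (Mttp) passed an unadjusted p of 0.05, and 1 was called by DESeq2. Of all tested genes, 0.792% were called higher and 0.599% lower by fasting in Vps15LKO liver, so that a count near 0 was also what the tested genes gave. These 332 calls became 4 without fasted Vps15LKO library a or c, and 1242 without library b. With DESeq2 there were 932, and with no filter 1558. The higher share of calls in Vps15LKO fasting was 56.9% with TMM scaling, and 36.8% with library sizes alone.

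Between genotypes in fed liver, 1 gene was called higher (Apoa4) and 8 lower, with a median of -0.85 beside 0.01 for all genes. Calls among all tested genes were even, with 23.4% higher and 23.0% lower. In fasted liver 0 were called higher and 9 lower, with a median of -1.11 beside 0.01, and the tested genes as a whole gave 28.2% higher and 28.1% lower. With library sizes alone the median of all genes shifted to 0.39 in fed and 0.52 in fasted liver, and the share of calls that were higher went from 50.4% to 76.3% and from 50.1% to 76.6%. In that scaling 7 of the 10 genes were called in fed liver (6 lower and Apoa4 higher) and 8 in fasted liver. For the difference in fasting response, 0 were called higher and 3 lower, with a median of -0.20 beside 0.01, against 6.35% higher and 5.70% lower of the tested genes. The higher share of those calls was 52.7%, 68.9% with library sizes alone and 65.1% with no filter. The comparisons share groups, so their counts are not independent of each other.

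**Figure D3:**
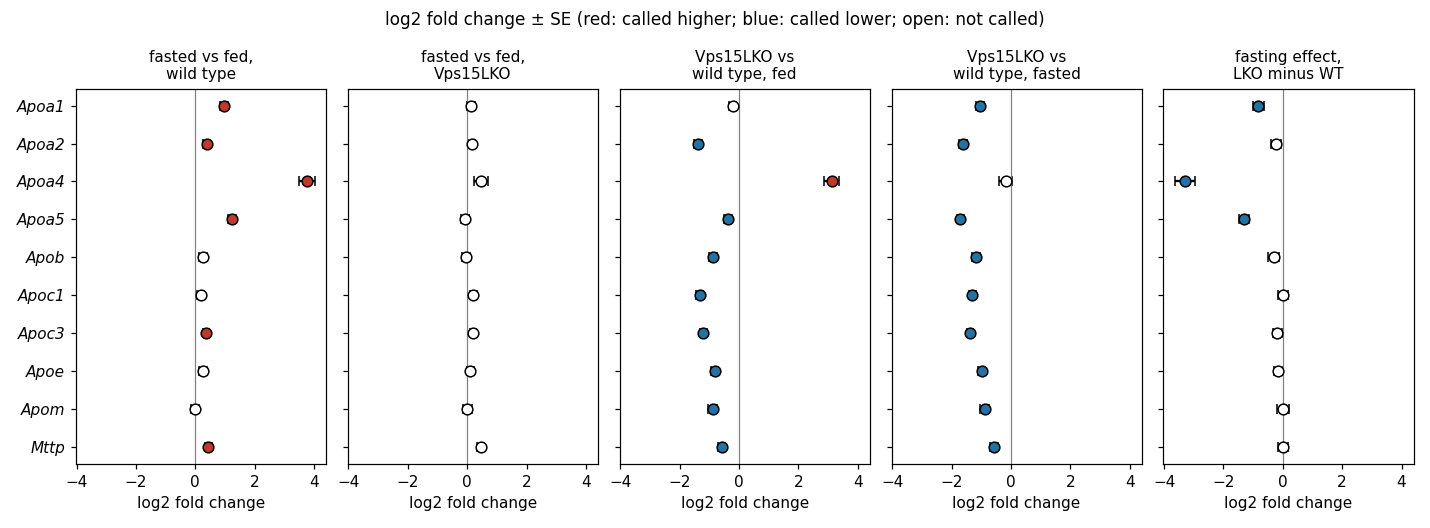
Log2 fold change of each gene (horizontal axis; error bars, SE from edgeR) in the 4 comparisons and for the difference in fasting response between genotypes. Red points were called higher, blue points lower and open points not called; Vps15LKO fasting has open points only, and Apoa4 is the red point in fed Vps15LKO against wild type.

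Because the genotype groups differed in scaling factor, each gene was also set against Alb, the albumin gene and a hepatocyte product, within the same library, a ratio that no scaling changes. Alb itself was at 16850 ± 1083, 18860 ± 658, 7593 ± 641 and 8773 ± 646 CPM in fed wild type, fasted wild type, fed Vps15LKO and fasted Vps15LKO liver (SD, n = 3). In fed Vps15LKO against wild type liver its log2 change was -1.15, and those of the 20 hepatocyte markers ran from -2.99 to -0.28. The size and direction of a ratio can therefore depend on the marker it is set against. These ratios are given as values, since 3 libraries against 3 cannot go below 0.10 in an exact two-sided test.

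Per 100 Alb counts in the same group order, Apoa4 gave 0.968 ± 0.228, 11.8 ± 4.08, 18.6 ± 5.1 and 22.2 ± 1.37 counts (SD, n = 3). Apoa1 gave 15.1 ± 2.73, 26.3 ± 1.47, 28.7 ± 0.882 and 27.2 ± 0.229. Beside Alb, then, Apoa1 in both Vps15LKO groups stood at or near the fasted wild type value and above every fed wild type library (12.7 to 18.1). Mttp gave 2.13 ± 0.0398, 2.58 ± 0.119, 3.17 ± 0.333 and 3.71 ± 0.274, with all Vps15LKO libraries above all wild type ones. Apoa5 gave 5.28 ± 0.791, 11.1 ± 1.22, 8.94 ± 0.925 and 7.36 ± 0.568, and Apoe 32.4 ± 2.59, 34.5 ± 1.36, 40.4 ± 0.96 and 37.8 ± 2.78. The fed Vps15LKO libraries of Apoa5 (8.4 to 10.0) lay above the fed wild type ones (4.49 to 6.08), although in CPM they lay below.

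The ratios of the other 5 genes to Alb were as follows. Apob gave 20.3 ± 1.13, 21.8 ± 1.0, 24.7 ± 1.04 and 20.7 ± 0.931 counts per 100 Alb counts (SD, n = 3). Apoc3 gave 5.33 ± 0.619, 6.13 ± 0.842, 5.15 ± 0.593 and 5.06 ± 0.218, and Apoc1 4.97 ± 0.666, 5.03 ± 0.483, 4.37 ± 0.336 and 4.35 ± 0.491. The Apob ratio was above wild type in fed Vps15LKO libraries (23.5 to 25.4 against 19.1 to 21.2), and the Apoc3 and Apoc1 ratios overlapped between the genotypes in fed liver. Apoa2 gave 9.41 ± 1.09, 11 ± 1.14, 8.01 ± 1.31 and 7.72 ± 0.876, and Apom 1.17 ± 0.0791, 1.04 ± 0.0622, 1.41 ± 0.445 and 1.21 ± 0.0508. For Apoa2 and Apom the fed libraries of both genotypes overlapped, too. In fasted liver the Apob and Apoc1 ratios overlapped between the genotypes, those of Apoa2 and Apoc3 were lower in every Vps15LKO library and those of Apom higher.

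**Figure D4:**
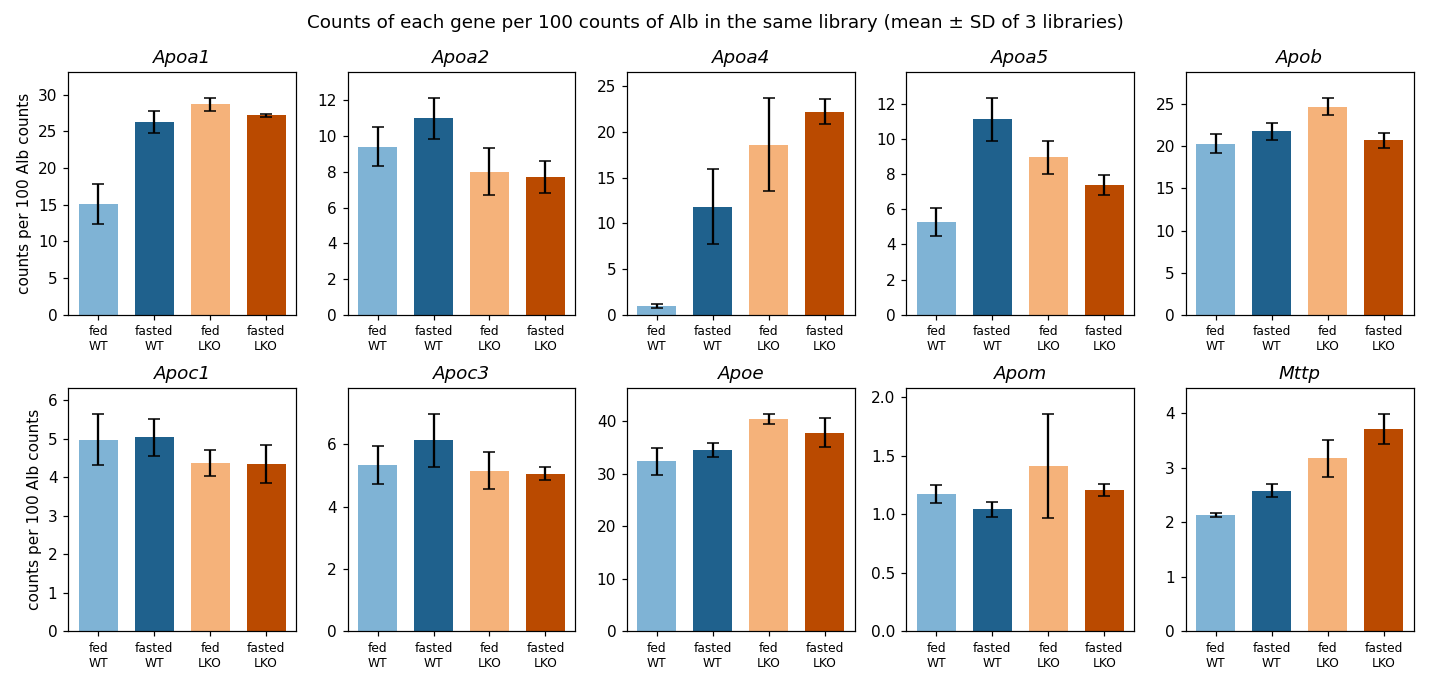
Counts of each gene per 100 Alb counts of the same library (vertical axis, from 0), as the mean of 3 libraries with SD (bars and error bars) in the 4 groups; LKO stands for Vps15LKO. Apoa4 goes from 0.968 in fed wild type to 22.2 in fasted Vps15LKO liver, Apoa1 and Mttp are higher in Vps15LKO than in fed wild type liver, and Apob stays between 20.3 and 24.7.

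The makeup of the set was compared per length, as CPM per kb of annotated exon. In fed wild type liver the order of these levels was Apoa2 (2940 ± 167 CPM per kb), Apoe (2544 ± 45.4), Apoa1 (2047 ± 310), Apoc1, Apoc3, Apoa5, Apob, Apom, Apoa4 (90.1 ± 22.3) and Mttp (57.8 ± 3.68) (SD, n = 3). Each neighbour in this order lay apart in its libraries. In fasted wild type liver Apoa1 (4005 ± 83.4) came to the top with Apoa2 (3864 ± 258), and their libraries overlapped. Apoa4 moved up to 1218 ± 378 CPM per kb there, in 1 range with Apoc1 and Apoc3. In fed and fasted Vps15LKO liver Apoa1 came first (1759 ± 111 and 1934 ± 146), then Apoe, Apoa2 and Apoa4 (781 ± 228 and 1072 ± 36.9), and the fed libraries of Apoa2 and Apoa4 overlapped.

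As a share of the summed per-kb level of the 10 genes, Apoa4 made up 0.868 ± 0.252% in fed and 7.58 ± 1.9% in fasted wild type liver, and 12 ± 3.2% in fed and 14.7 ± 1.04% in fasted Vps15LKO liver (SD, n = 3). Apoa2 went the other way, with 28.1 ± 0.485, 24.3 ± 0.604, 17.4 ± 2.51 and 17.2 ± 1.24%. Apoe held between 19.1 and 24.3% in the group means. The 10 genes together took 1.41 to 1.53% of all counts in fed and 1.9 to 2.07% in fasted wild type, and 1.21 to 1.33% in fed and 1.35 to 1.4% in fasted Vps15LKO libraries. Fasted wild type libraries thus gave the set its largest part of the 4 groups, with no overlap with the others.

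**Figure D5:**
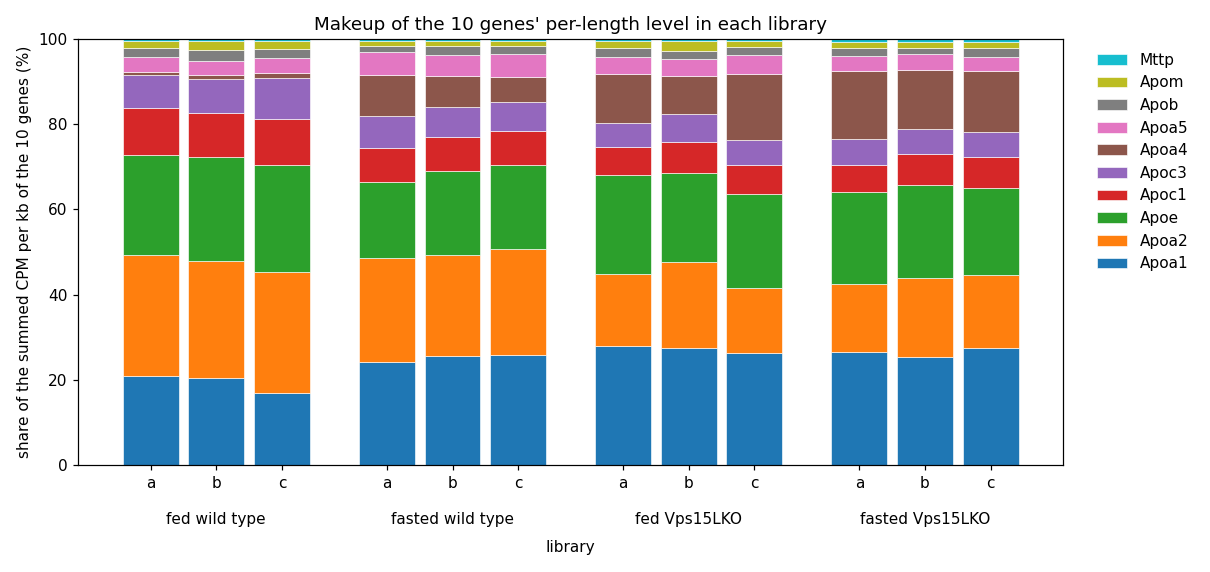
Share of each gene in the summed CPM per kb of the 10 genes (vertical axis, percent) in each of the 12 libraries (stacked bars, libraries a to c in each group). The band of Apoa4 is thin in fed wild type (0.607 to 1.11%) and reaches 13.9 to 15.9% in fasted Vps15LKO libraries, while that of Apoa2 narrows.

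Ratios between neighbouring or partner genes in the same library, taken from the same counts, also differed between groups. Apoa4 was at 6.73 ± 2.69 counts per 100 Apoa1 counts in fed and 44.5 ± 12.8 in fasted wild type, and 65.2 ± 19.3 in fed and 81.6 ± 5.53 in fasted Vps15LKO liver (SD, n = 3). Mttp was at 10.5 ± 0.441, 11.9 ± 0.824, 12.8 ± 1.36 and 17.9 ± 0.803 counts per 100 Apob counts in that order, so that the transfer protein gained on its partner in fasted Vps15LKO libraries, all 3 of which lay above the others. Apoe was at 655 ± 35.2, 688 ± 38.4, 928 ± 84.0 and 874 ± 94.2 counts per 100 counts of its neighbour Apoc1.

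Genes were also ranked by how near their centred log2 CPM profile over the 12 libraries came to that of each member, among 10020 genes with a mean of at least 5 CPM. The nearest to Apoa1 were Rsad1, Agpat3 and Zfp36, with root mean square differences of 0.11, 0.13 and 0.14 against a root mean square of 0.48 for Apoa1 itself. The nearest to Apoa5 were Ang, Decr2 and Grhpr (0.13, 0.14 and 0.14, against 0.69). Apoa4 had no close partner: its nearest were Acot2, a mitochondrial acyl-CoA thioesterase, Cntnap1 and Cgref1, at 0.55, 0.56 and 0.56 against 1.55. For Apoa2 they were Asgr1, Adh5 and Sar1b, and for Apob Hdhd5, Ftsj1 and Pzp. Apoc1 and Apoc3 shared Ndufb11 and Ndufb9, subunits of respiratory complex I, with Mgst1 and Aldh9a1 as the remaining neighbour of each. Apoe lay nearest to Emc6, Tecr and mt-Co1, Apom to Ndufs8, Acbd4 and Ndufa1, and Mttp to Cab39l, Mrpl38 and Adrm1. The 12 libraries share 4 groups, so these profiles mostly describe group means.

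Around the 10 genes, 5 further lists were followed. Their counts stand beside these shares of all tested genes called higher and lower. The shares were 12.4% and 14% in wild type fasting and 0.792% and 0.599% in Vps15LKO fasting. Between genotypes they were 23.4% and 23.0% in fed and 28.2% and 28.1% in fasted liver. For the difference in fasting response they were 6.35% and 5.70%. Of 20 partners of VLDL assembly and export, 9 were called higher and 1 lower in wild type fasting, with a median log2 change of 0.34. Those with the smallest adjusted p were Soat2, which esterifies cholesterol, from 12.8 ± 2.25 to 34.8 ± 0.894 CPM (1.44 ± 0.18, adjusted p = 3.28e-05, edgeR), Fitm2, a lipid droplet protein (1.10 ± 0.14, adjusted p = 5.31e-05), Lpcat3, which remodels phospholipids (1.14 ± 0.15, adjusted p = 7.47e-05), and Mia3, a cargo receptor for large particles (0.69 ± 0.10, adjusted p = 0.000147). With library sizes alone, 7 of the 20 were higher and 2 lower in wild type fasting (median 0.16, beside -0.19 for all tested genes). Some of the wild type calls made with TMM scaling were lost without 1 library (adjusted p from 0.05 to 0.118, edgeR). In Vps15LKO fasting, with TMM scaling, 0 were higher and 1 lower, Sort1, a sorting receptor (-0.74 ± 0.13, adjusted p = 0.0241, edgeR). This and the 6 other Vps15LKO fasting calls named below (Abca1, Abcg1, Lpl, Creb3l3, Ppargc1a and Rbm47) were lost without fasted Vps15LKO library a and without library c (adjusted p from 0.0537 to 0.21, edgeR), and most were lost without fed Vps15LKO library a or c.

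Between genotypes, 2 of the 20 partners were higher and 11 lower in fed Vps15LKO liver (median -0.33), and 2 higher and 14 lower in fasted liver (median -0.70). With library sizes alone, against which the median of all genes moved as given above, the counts were 7 higher and 8 lower in fed (median 0.05) and 4 higher and 10 lower in fasted liver (median -0.19). Ces1d, a lipase of the endoplasmic reticulum that feeds VLDL with lipid, went from 660 ± 47.1 CPM in fed wild type to 66.5 ± 13.7 CPM in fed Vps15LKO liver (-3.31 ± 0.23, adjusted p = 3.06e-08, edgeR). Sar1b, the small GTPase of the vesicles that export large particles, was lower by a log2 change of -1.49 ± 0.13 (adjusted p = 2.38e-07, edgeR), Dgat2, a triglyceride synthase, by -1.20 ± 0.11 (adjusted p = 4.37e-07, edgeR) and Aadac, an esterase, by -2.21 ± 0.21 (adjusted p = 6.34e-07, edgeR). Cideb, which helps lipidate VLDL, was lower in fasted Vps15LKO by -1.52 ± 0.14 (adjusted p = 2.45e-07, edgeR). The fasting response in Vps15LKO minus that in wild type was called negative for 6 partners and positive for 2. The positive ones, named after their values were seen, were Dgat2, from 690 to 593 CPM in wild type and from 300 to 383 CPM in Vps15LKO fasting in the group means, and Tmem41b, from 25.2 to 18.6 CPM and from 13.2 to 15.1 CPM. Both positive calls were lost without 1 of several libraries (adjusted p from 0.05 to 0.115, edgeR). Of the 6 negative calls, those of Soat2, Fitm2 and Lpcat3 were also lost without at least 1 library (adjusted p from 0.0504 to 0.0655, edgeR). Among the negative ones, Tm6sf2, an endoplasmic reticulum protein needed for VLDL lipidation, went from 34.7 ± 5.51 to 68.8 ± 11 CPM in wild type and from 38.8 ± 9.57 to 27 ± 4.2 CPM in Vps15LKO fasting (difference -1.51 ± 0.27, adjusted p = 0.00185, edgeR). Mia3 differed by -0.77 ± 0.14 (adjusted p = 0.00266, edgeR) and Dgat1 by -1.0 ± 0.20 (adjusted p = 0.00423, edgeR).

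The 3 genes of Apob mRNA editing, by which liver of mice makes the short form of the protein, split. Apobec1, the deaminase, was at 22.4 ± 1.24 CPM in fed wild type and 50.0 ± 2.85 CPM in fed Vps15LKO liver (1.16 ± 0.13, adjusted p = 4.85e-06, edgeR). Its cofactors were lower: A1cf by a log2 change of -0.90 ± 0.13 (adjusted p = 5.83e-05, edgeR) and Rbm47 by -0.44 ± 0.12 (adjusted p = 0.00547, edgeR). In fasted liver the changes were 1.68 ± 0.14 for Apobec1 (adjusted p = 9.18e-08, edgeR), -1.83 ± 0.14 for A1cf (adjusted p = 3.78e-08, edgeR) and -1.24 ± 0.12 for Rbm47 (adjusted p = 3.8e-07, edgeR). The fed change of Rbm47 was -0.07 with library sizes alone (adjusted p = 0.63, edgeR). Fasting raised A1cf by 0.45 ± 0.13 in wild type (adjusted p = 0.0205, edgeR), a call lost with library sizes alone, with no filter and without fed wild type library a or b or fasted wild type library b or c (adjusted p from 0.06 to 0.131, edgeR), and Rbm47 fell by 0.56 ± 0.12 in Vps15LKO fasting (adjusted p = 0.0326, edgeR). Editing of the message itself was not measured.

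Of 16 other apolipoproteins and HDL proteins, 15 were tested. In wild type fasting 4 were higher and 5 lower, and the serum amyloid genes Saa1 (-4.83 ± 0.34, adjusted p = 2.99e-07, edgeR), Saa2 (-4.42 ± 0.53, adjusted p = 2.62e-05) and Saa4 (-1.98 ± 0.18, adjusted p = 2.22e-06) were 3 of the latter. Saa1 and Saa2 are near-identical, and reads could be split between them, so their single values are uncertain. In Vps15LKO fasting 0 were higher and 2 lower, the cholesterol exporters Abca1 (-0.81 ± 0.11, adjusted p = 0.00702, edgeR) and Abcg1 (-0.84 ± 0.20, adjusted p = 0.0472, edgeR). Abca1, which loads lipid onto apolipoprotein A-I, changed by -0.84 ± 0.11 in wild type fasting too (adjusted p = 4.78e-05, edgeR).

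In fed Vps15LKO liver 2 of the 15 were higher and 10 lower (median -1.05), and in fasted liver 4 higher and 11 lower (median -1.05). Scaled by library sizes alone, 7 were lower in fed and 8 in fasted liver (medians -0.67 and -0.54). Pon1, the HDL-bound paraoxonase, went from 504 ± 18.0 CPM in fed wild type to 79.4 ± 16.4 CPM in fed Vps15LKO liver (-2.67 ± 0.18, adjusted p = 3.48e-08, edgeR). Apoh was lower by a log2 change of -1.43 ± 0.14 (adjusted p = 8.32e-07, edgeR), and Apoc4, which lies beside Apoc1, by -1.13 ± 0.11 (adjusted p = 1.19e-06, edgeR). Apoc4 shares a readthrough transcript, Gm44805, with Apoc2, so its counts are uncertain. The fasting response differed between genotypes for 6 of the 15. Saa1, Saa2 and Saa4 changed less in Vps15LKO: the group means went from 356 to 12.6 CPM in wild type and from 172 to 160 CPM in Vps15LKO fasting for Saa1, from 92.0 to 4.35 and from 116 to 81.5 CPM for Saa2, and from 1373 to 348 and from 114 to 87.2 CPM for Saa4 (adjusted p of the difference 1.54e-05, 0.00158 and 0.000903, edgeR). For the other 3 (Pon3, Apoc4 and Apon) the Vps15LKO response minus the wild type response was negative, from -0.66 to -0.60, and each of these calls was lost with no filter and without 1 of several libraries.

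Among 16 receptors and regulators of lipolysis, 2 were higher and 5 lower in wild type fasting. Of all tested genes, 12.4% were called higher there and 14% lower. Angptl4, an inhibitor of lipoprotein lipase, went from 69.2 ± 19.0 to 479 ± 37.1 CPM (2.79 ± 0.19, adjusted p = 2.26e-07, edgeR), and its relative Angptl8 from 187 ± 86.4 to 15.4 ± 3.62 CPM (-3.60 ± 0.33, adjusted p = 1.98e-06, edgeR). Lpl, lipoprotein lipase, changed by -2.14 ± 0.18 (adjusted p = 1.26e-06, edgeR). In Vps15LKO fasting 0 were higher and 1 lower, Lpl (-0.79 ± 0.16, adjusted p = 0.0285, edgeR). The fasting response in Vps15LKO minus that in wild type was called positive for 7 of the 16 and negative for 1 (median 0.50). Of all tested genes, 6.35% were called positive and 5.70% negative. The negative one of the 16 was Angptl4, at -2.22 ± 0.25 (adjusted p = 8.23e-05, edgeR). Some of the positive calls were lost without 1 of several libraries (adjusted p from 0.0537 to 0.0953, edgeR).

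Between genotypes 4 of the 16 were higher and 8 lower in fed, and 5 higher and 8 lower in fasted liver (medians -0.30 and -0.26). Of all tested genes, 23.4% were higher and 23.0% lower in fed, and 28.2% and 28.1% in fasted liver. The counts of higher genes were near these shares. With library sizes alone the balance turned, with 7 higher and 5 lower in fed and 8 higher and 4 lower in fasted liver (medians 0.08 and 0.25). Lrp8, an Apoe receptor, had mean levels of 0.209 and 0.0888 CPM in fed and fasted wild type liver and 15.3 CPM in both Vps15LKO groups (adjusted p = 6.28e-09 in fed and 4.01e-09 in fasted liver, edgeR). Lpl was higher in fasted Vps15LKO by 2.86 ± 0.18 (adjusted p = 1.05e-08, edgeR). Macrophages make Lpl too, and their part in its level was not tested.

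Of 25 transcription factors and cofactors that act on apolipoprotein genes, 8 were higher and 4 lower in wild type fasting. Creb3l3, a factor of the fasted liver known to act on Apoa4 and Apoa5, went from 257 ± 24.7 to 607 ± 38.1 CPM (1.24 ± 0.14, adjusted p = 1.74e-05, edgeR). In Vps15LKO it went from 271 ± 53.3 to 455 ± 32.3 CPM and was the only 1 of the 25 called higher there (0.75 ± 0.14, adjusted p = 0.0248, edgeR). Ppargc1a, a coactivator of fasting metabolism, changed by 2.25 ± 0.28 in wild type (adjusted p = 3.4e-05, edgeR) and by -1.21 ± 0.27 in Vps15LKO (adjusted p = 0.0432, edgeR), a difference of -3.46 ± 0.39 (adjusted p = 7.63e-05, edgeR). Srebf1, the lipid synthesis regulator, changed by -3.47 ± 0.15 in wild type fasting (adjusted p = 2.69e-09, edgeR).

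Between genotypes 1 of the 25 was higher and 16 lower in fed (median -0.52), and 1 higher and 22 lower in fasted liver (median -0.92). Scaled by library sizes alone, 4 were higher and 11 lower in fed, and 1 higher and 12 lower in fasted liver. The lower ones in fed liver included Srebf1 (-2.69 ± 0.14, adjusted p = 3.07e-09, edgeR), Mlxipl, the carbohydrate response factor (-2.09 ± 0.14, adjusted p = 3.64e-08, edgeR), the bile acid receptor Nr1h4 (-1.54 ± 0.13, adjusted p = 1.68e-07, edgeR) and Cebpa (-1.42 ± 0.14, adjusted p = 1.38e-06, edgeR). Of the 20 hepatocyte markers, 0 were higher and 19 lower in fed (median -1.09), and 18 were lower in fasted Vps15LKO liver (median -1.40). With library sizes alone 14 and 17 of the 20 were lower. Wild type fasting gave 6 higher and 1 lower of these 20 markers, and Vps15LKO fasting 0 higher and 1 lower. The part of the hepatocyte markers' change in the lower apolipoprotein levels was not tested. The values per 100 Alb counts are the measurement nearest to it, but they rest on 1 of these 20 markers.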

How the data were processed

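The liver values are raw counts of reads per gene as the authors deposited them, for which the submitters' processing notes list HISAT2, Subread, DESeq2, edgeR and mm10. Their versions and settings were not given in the sources used here. Columns name the group and a running number only, so libraries are lettered. The fibroblast libraries of the series were not used here. Of 136300 identifiers, 48526 are Ensembl genes (48058 matched to a GENCODE symbol, GRCm38) and 87774 are NONCODE identifiers, which took 20.5 to 24.8% of the counts. Genes were filtered with filterByExpr, scaled with TMM and fitted in edgeR 4.0.16 (R 4.3.3) with 1 mean per group over the 12 libraries, and glmQLFTest p-values were adjusted by Benjamini-Hochberg over 23875 genes. The SE is the log2 change over the root of F. The fit was tried on simulated data with 200 genes changed in 1 group, which does not check the choice of scale. Replicate libraries differed by more than sampling noise (chi-square of 7.4 to 16.7 per degree of freedom). The alternatives were DESeq2 1.42.0, RLE factors, library sizes alone, no filter, Ensembl genes only, only the groups compared, and each library left out. Named genes are the 10 members, Pik3r4, per list and comparison the 4 or fewer genes of lowest adjusted p, and the 3 nearest profiles of each member. Flanking genes and Gpnmb, Lyz2, Fabp2, Sis, Alpi and Lct were added after their values were seen. The members and lists were chosen with earlier results of these data known. Promoter windows come from RefSeq. Some genes that this rule names are not reported here.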

Additional observations from a re-analysis of the deposited data

Results flagged for a closer look

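For 3 of the 10 genes the fasting response differed between the genotypes by the test of the difference itself (edgeR's quasi-likelihood test, adjusted over all tested genes). The response in Vps15LKO minus that in wild type was -0.83 for Apoa1, -3.30 for Apoa4 and -1.31 for Apoa5 on the log2 scale. In CPM, Apoa4 reached this from a fed Vps15LKO level far above the fed wild type level, whereas Apoa1 and Apoa5 reached it from fasted Vps15LKO levels below those of fasted wild type. Per 100 Alb counts, fed Vps15LKO was above fed wild type for Apoa1 (28.7 against 15.1) and Apoa5 (8.94 against 5.28) too. On that measure fasted Vps15LKO was not below fasted wild type for Apoa1 (27.2 against 26.3), but was for Apoa5 (7.36 against 11.1). Groups of 3 libraries were too small to test for a single library far from the others.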

How the results depend on the processing

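Each of the 10 genes was recomputed under 6 other settings and with each library left out, giving 650 values, of which 594 kept direction and side of the threshold, 19 lost their call, 8 gained one and 29 changed sign. The count of called genes in wild type fasting was 6, and 3 with library sizes alone and with no filter on low counts, 7 with DESeq2, with Ensembl genes only and with only the groups compared, and 4 to 6 with a library left out. In Vps15LKO fasting it was 0, and 1 with DESeq2, 2 with no filter, 1 with Ensembl genes only and 0 to 1 with a library left out. None of the values that changed sign had been called. They were Apoc1 in wild type fasting (-0.00 with library sizes alone), Apom in wild type fasting (0.03 with Ensembl genes only, -0.07 to 0.07 with a library left out) and Apom in Vps15LKO fasting (0.03 with no filter, 0.02 with Ensembl genes only, 0.00 with only the groups compared, -0.16 to 0.20 with a library left out). With a library left out, Apoa5 in Vps15LKO fasting ranged from -0.17 to 0.01 and Apob from -0.14 to 0.04. With library sizes alone, Apoa1 in fed liver between genotypes went to 0.15 and Apoa4 in fasted liver to 0.33, and the latter ranged from -0.34 to 0.11 with a library left out. For the difference in fasting response, Apoc1 ranged from -0.04 to 0.14, Apom from -0.15 to 0.21 and Mttp from -0.12 to 0.08 with a library left out, and Apom and Mttp were each at -0.01 with Ensembl genes only. The cause was not tested. No paired analysis was possible because the columns of the liver table carry no replicate number of the labels. Leaving out a library leaves 2 in its group, so the precision is set by the number of libraries.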

Other observations

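Markers of further liver cell types were counted as well. Of all tested genes, 12.4% were higher and 14% lower in wild type fasting, and 0.792% and 0.599% in Vps15LKO fasting. Between genotypes 23.4% of them were higher and 23.0% lower in fed, and 28.2% and 28.1% in fasted Vps15LKO liver. Of 6 tested cholangiocyte markers, 2 were called higher in fed and 5 in fasted Vps15LKO than in wild type liver (edgeR), with summed levels of 93.7 to 103 CPM in fed wild type and 188 to 253 CPM in fed Vps15LKO libraries. Of 9 stellate cell and fibroblast markers, 5 were higher in fed Vps15LKO liver, and 4 were lower in wild type fasting. Of 8 tested neutrophil markers, 7 were lower in wild type fasting and 6 higher in fasted Vps15LKO than in fasted wild type liver, at summed levels of at most 38.5 CPM. Of 7 endothelial markers, 5 were lower and 0 higher in wild type fasting (Cdh5, Lyve1, Stab2, Tek and Kdr, with log2 changes from -0.90 to -0.40), the calls of Stab2, Tek and Kdr being lost without 1 of several libraries, and 0 were called in Vps15LKO fasting. Between genotypes 3 of the 7 endothelial markers were higher and 2 lower in Vps15LKO than in wild type liver in both feeding states. Their median log2 changes were -0.08 in fed and -0.02 in fasted liver. Of 6 tested lymphocyte markers, 3 were lower in wild type fasting, at summed levels of at most 14.2 CPM, and the 2 tested of 7 adipocyte markers included Fabp4, which macrophages and endothelium express too, at 9.52 ± 1.45 CPM in fed wild type and 59.1 ± 15.5 CPM in fasted Vps15LKO liver (SD, n = 3). Their part in the levels of the 10 genes was not tested.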
